A study of Lens culinaris with 18 samples.

Results

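The transcripts described here are 76 of the 124151 gene-level components assembled from lentil (Lens culinaris, cultivar Sultan), chosen on their measured values. They were abundant in root and leaf, were higher in 96 h than in 24 h unstressed controls of both tissues, and had a drought over control ratio within 2-fold in each tissue at each time. The working description of such a set is insensitive to drought. That wording is not kept, since ratios within 2-fold leave room for a difference. In root at 96 h both drought libraries lay below both control libraries in 68 of the 76. This held for 46.8% of all transcripts that averaged at least 5 in both tissues. The rule used that contrast and chose members for high 96 h controls, its denominator, which favours drought below control. No conclusion is drawn from the count. The set is called here the late-control transcripts, after the rule. The identifiers come from an assembly without a genome, and the file does not pair them with gene names. What the members encode, their sequences, and markers of root or leaf were therefore not analysed here, and members are given by their rank under the rule, except 4 named by identifier.

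Seedlings aged 7 days were moved from perlite to aerated nutrient solution. Drought groups had 15% PEG 6000 in that solution and control groups had none. Libraries of root and of leaf were made at 96 h and at 24 h, each with and without PEG, which gave 8 groups of 2 replicates that the labels call biological. All plants shared 1 cultivar, and no other genotype, allele or agent was used. Nothing in the labels says how many plants were pooled in a library.

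Polyethylene glycol of high molecular weight lowers the water potential of a solution without readily entering plant cells, and is used to impose water deficit on roots. In a young legume seedling, reserves of the cotyledons are used up while roots elongate and leaves expand, so the transcriptome of an unstressed plant keeps changing over days. A comparison of stressed with unstressed plants at 1 time leaves that change out, and a comparison of unstressed plants at different times measures it. Between the 24 h and 96 h controls, seedling age, time in solution and harvest cannot be told apart.

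The values are TPM, a read share per unit of transcript length, multiplied by 1 factor per library. TPM keeps no read counts, so the depth of the libraries is unknown and a value of 0 means only that a transcript is listed at 0. In 13 of the 16 libraries the values summed to between 514669 and 943452. In the other libraries, both 96 h drought leaf libraries and replicate 2 of the 24 h root controls, 2 transcripts outside the set held 81.1%, 76.3% and 92.4% of the summed values. The same pair held 23.3% in replicate 1 of the 24 h root controls and at most 0.0991% in each other library. The 2 root libraries of the 96 h controls were closer to each other than those of any other group, whose absolute log2 difference had a median of 0.05 among abundant transcripts, against 0.10 to 0.54 in the other groups. With no counts, whether these 2 differ by more than sampling noise could not be tested, and values with these libraries averaged to 1 sample are given where they move a result. In bulk samples, fewer cells of a type and less RNA per cell cannot be told apart.

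The rule kept few of the transcripts that were higher in the later controls. Of 124151 transcripts, 10560 averaged at least 5 in root and in leaf and are called abundant here. Of these, 2235 in root and 1625 in leaf had a lowest 96 h control at least 1.5 times the highest 24 h control, after 1 was added to each value. The direction was the same in both tissues for 1016, which is 9.62% of abundant transcripts. The opposite direction in both tissues was met by 330. All 4 drought ratios lay within 2-fold for 27.7% of abundant transcripts but for 7.48% of the 1016, which left the 76 members. No rank limit applied, since the rule allowed 150. The mirror rule, for transcripts lower in the later controls, kept 22. That balance held only for the values as deposited. With libraries rescaled by median ratios, the rule found 74 and the mirror rule 91. With the 2 dominant transcripts removed and totals made equal, they found 25 and 24, and with totals made equal alone both found 0. No excess in either direction is read from these counts.

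The drought windows at 96 h removed most of the 1016. In root at 96 h, 63.7% of them had a drought over control ratio of 0.5 or less, against 14.4% of abundant transcripts. A ratio of 2 or more was found there in 0.492% of the 1016, against 9.38% of abundant transcripts. In leaf at 96 h the shares at 0.5 or less were 63.1% of the 1016 and 39.2% of abundant transcripts. At 24 h the shares at 0.5 or less were 16.3% in root and 16.5% in leaf, against 8.52% and 11.3% of abundant transcripts. The shares at 2 or more at 24 h were 15.6% in root and 14.3% in leaf, against 18.1% and 8.60% of abundant transcripts. The 1016 were chosen for 96 h controls above 24 h controls. The 96 h controls are the denominator of the 96 h ratios, so that choice favoured low ratios at 96 h. The 24 h controls favoured high ratios at 24 h in the same way. Nothing is read from these shares beyond what the windows removed. The late-control transcripts are those of the larger set that passed all 4 windows, 2 at each time, and the rule fixed this.

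**Figure D1:**
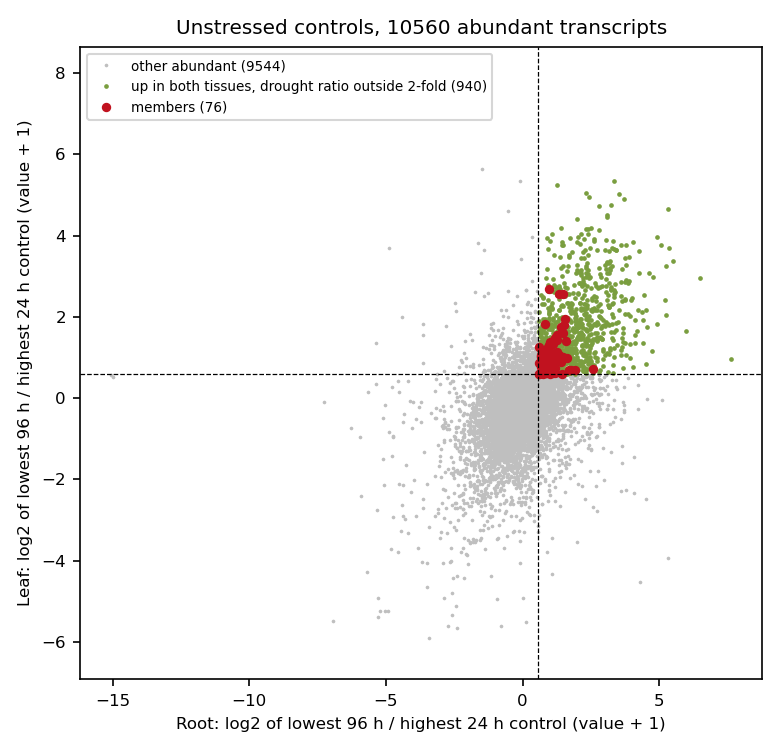
Each point is 1 of 10560 abundant transcripts. The x axis (root) and y axis (leaf) give the log2 ratio of the lowest 96 h control to the highest 24 h control, after 1 was added to each value, and dashed lines mark 1.5-fold. Red points are the 76 members, green points the 940 that passed both lines but had a drought ratio outside 2-fold, and grey points the other transcripts.

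The rank of a member is set by the smaller of its root and leaf ratios of lowest 96 h to highest 24 h control. That smaller ratio was 2.93 at rank 1 and at least 2 in 18 members. Rank 76 had 1.501, and the first transcript left out, with all other criteria met, had 1.493. Root gave the smaller ratio in 37 members and leaf in 39. The member nearest a drought limit was rank 24, with a ratio of 0.501 in root at 24 h, and the nearest transcript outside the limits had 0.497 in root at 96 h.

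Members were moderately abundant. The mean over 16 libraries was 5.54 for the lowest, 16.7 for the median and 241 for the highest member. Only 3 members averaged at least 100, and 21 averaged under 10. In 4 members, 5 values were listed at 0, and all 5 fell in the libraries in which 2 transcripts held most of the summed values. The members' median value was 15.7 and 16.7 in root 96 h drought libraries, and 25.2 and 25.3 in root 96 h controls. It was 10.6 and 10.1 in root 24 h drought libraries, and 11.8 and 8.40 in root 24 h controls. In leaf the median was 16.9 and 16.5 in 96 h drought libraries, and 23.7 and 23.5 in 96 h controls. It was 12.7 and 11.5 in leaf 24 h drought libraries, and 10.8 and 10.5 in leaf 24 h controls. In both tissues the 96 h controls stood highest, the 96 h drought libraries came between, and the 24 h libraries of both kinds were lowest. The leaf order is that of the values as deposited, and the place of leaf 96 h drought against 24 h drought turned with scaling: the median log2 ratio of stressed leaf at 96 h over 24 h was -1.98 at the same total and -0.27 with the dominant pair removed first.

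**Figure D2:**
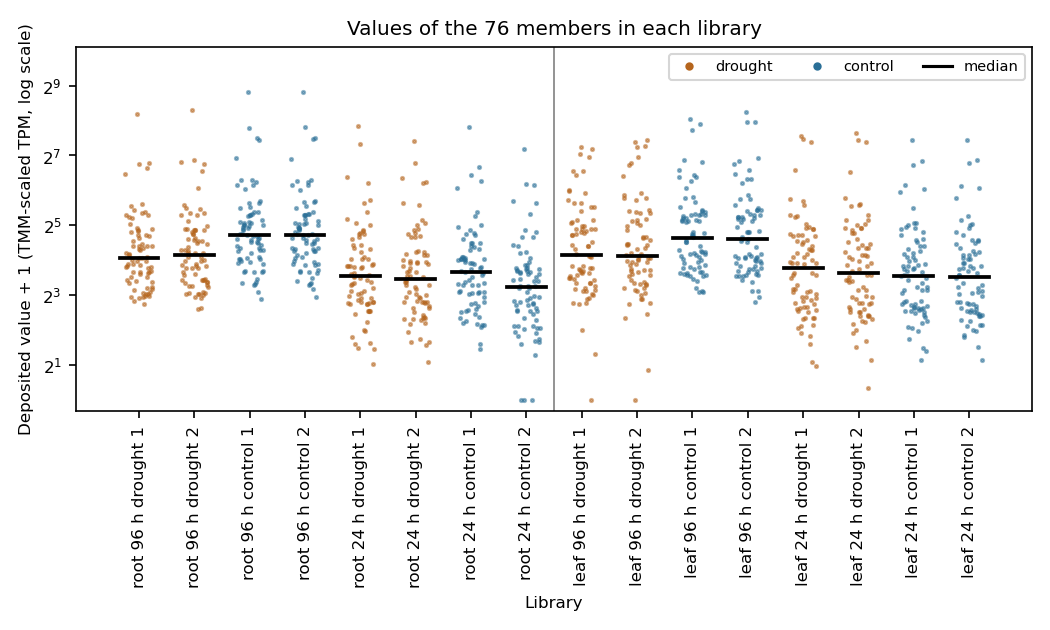
Each point is 1 of the 76 members, plotted by library on the x axis against its deposited value plus 1 on a log scale on the y axis. Drought libraries are brown, control libraries blue, and black bars are medians. The median bar is highest in the 96 h controls of root (25.2 and 25.3 before 1 was added) and of leaf (23.7 and 23.5).

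The highest ranks show how differently members could behave under the same rule. Rank 1 had 15.7 and 27.9 in root 96 h drought libraries, against 38.2 and 38.5 in root 96 h controls. Its values were 7.42 and 7.22 in root 24 h drought libraries, against 12.4 and 11.96 in root 24 h controls. As deposited, drought was below control in root at both times without overlap. At the same total, 0 members had both drought libraries below both controls in root at 24 h. In leaf, rank 1 had 30.4 and 19.0 in 96 h drought libraries, against 24.4 and 23.5 in 96 h controls. In leaf 24 h libraries it had 6.08 and 5.91 under drought, against 5.40 and 4.69 in controls. As deposited, the 96 h drought and control libraries of leaf overlapped, and all 4 leaf libraries at 96 h were above all 4 at 24 h. At the same total, stressed leaf was not higher at 96 h without overlap in any member.

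Rank 2 had 20.1 and 21.0 in root 96 h drought libraries, against 34.5 and 34.0 in root 96 h controls. It had 13.9 and 13.8 in root 24 h drought libraries, against 9.24 and 11.1 in root 24 h controls. In leaf it had 44.9 and 40.3 in 96 h drought libraries, against 38.0 and 38.2 in 96 h controls. As deposited, drought was thus below control in root at 96 h, and above it in root at 24 h and in leaf at 96 h, each time with no overlap. At the same total, 0 members had both drought libraries above both controls in leaf at 96 h. In leaf at 24 h, rank 2 had 14.3 and 14.1 under drought, against 10.2 and 8.72 in controls.

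Rank 3 was more abundant in leaf. It had 25.3 and 20.8 in leaf 96 h drought libraries, against 35.7 and 36.6 in leaf 96 h controls, and 16.0 and 16.2 in leaf 24 h drought libraries, against 10.9 and 11.0 in leaf 24 h controls. As deposited, drought was below control at 96 h and above it at 24 h, with no overlap at either time. Root followed the same order at lower values, with 9.15 and 9.26 in 96 h drought libraries, against 15.5 and 15.8 in 96 h controls. In root at 24 h, rank 3 had 7.76 and 9.81 under drought, against 4.77 and 4.84 in controls.

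Ranks 4 and 5 were among the members whose stressed plants differed by time as well as the controls. Rank 4 had 11.9 and 9.39 in root 96 h drought libraries, against 1.04 and 1.13 in root 24 h drought libraries. Its controls had 11.8 and 11.3 in root at 96 h, against 3.43 and 2.33 at 24 h. In leaf, rank 4 had 9.87 and 15.8 in 96 h drought libraries, against 0.967 and 1.22 in 24 h drought libraries. Rank 5 had 7.86 and 8.61 in root 96 h drought libraries, against 2.03 and 2.17 in root 24 h drought libraries. In leaf it had 11.1 and 11.3 in 96 h drought libraries, against 3.19 and 2.80 in 24 h drought libraries. As deposited, in both members and in both tissues, every 96 h library was above every 24 h library. At the same total, 0 members had both leaf 96 h drought libraries above both at 24 h.

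Values listed at 0 bear on the next ranks. Rank 6 had 12.2 and 0 in leaf 96 h drought libraries, against 10.6 and 11.0 in leaf 96 h controls, and 7.26 and 0 in root 24 h controls. Rank 7 had 0 and 35.6 in leaf 96 h drought libraries, against 18.0 and 15.9 in leaf 96 h controls. For both members a ratio of means hides replicates that lie far apart. The most abundant member, rank 74, had 288 and 315 in root 96 h drought libraries, against 448 and 450 in root 96 h controls. It had 229 and 169 in root 24 h drought libraries, against 225 and 144 in root 24 h controls, where the 2 replicates of each group overlapped those of the other.

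The last member kept, rank 76, had a flatter pattern. In root it had 17.4 and 18.5 in 96 h drought libraries, against 23.4 and 24.0 in 96 h controls, and 13.4 and 15.0 in 24 h drought libraries, against 15.2 and 9.86 in 24 h controls. In leaf it had 10.4 and 8.31 in 96 h drought libraries, against 18.7 and 16.4 in 96 h controls. At 24 h its leaf values were 14.4 and 17.9 under drought, against 10.6 and 10.2 in controls. As deposited, its stressed leaf was thus lower at 96 h than at 24 h, while its unstressed leaf was higher. By median ratios, 0 members had both leaf 96 h drought libraries below both at 24 h.

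**Figure D3:**
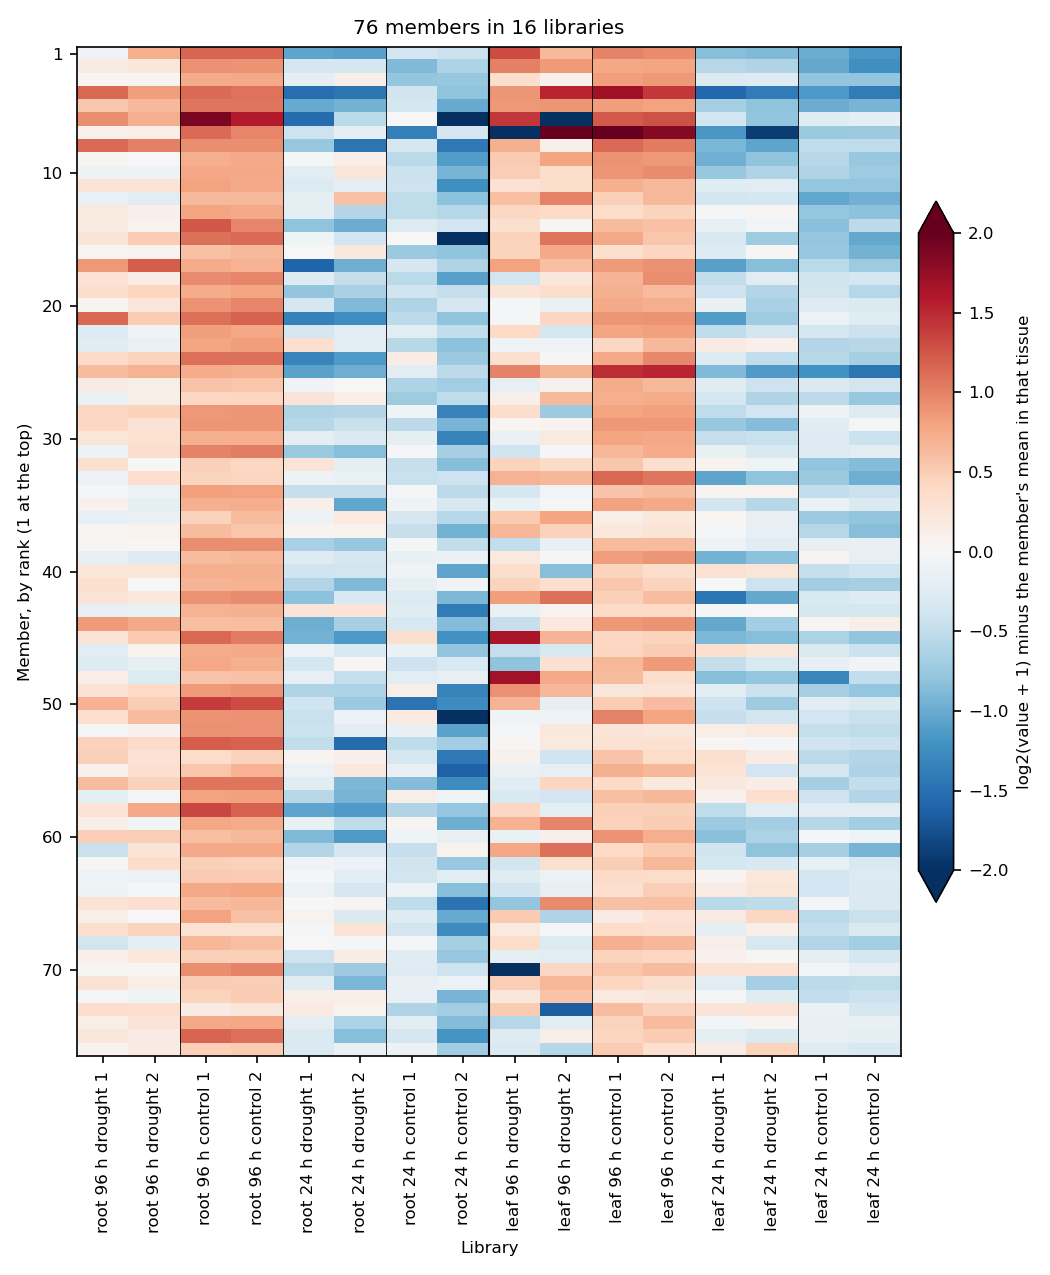
Each line across is 1 of the 76 members in order of rank (y axis), and each column 1 of 16 libraries (x axis), root left of leaf. Colour is log2(value + 1) minus the member's mean in that tissue, red above and blue below. Both 96 h controls are above the tissue mean for all 76 members in root and in leaf, a contrast the rule used, and the 96 h drought columns are mixed.

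Among unstressed plants, the contrast that chose the members, the ratio of mean values plus 1 (96 h over 24 h) had a median of 2.46 in root and 2.08 in leaf. In root the log2 ratio ran from 0.63 to 2.72 with a median of 1.30, beside a median of 0.24 over abundant transcripts. In leaf it ran from 0.65 to 2.83 with a median of 1.06, beside -0.03 over abundant transcripts. By rule both 96 h controls were above both 24 h controls in all 76, and this held for 47.2% of abundant transcripts in root and 39.9% in leaf. Nothing is read from that excess. The ratio was at least 2 in 60 members in root, in 41 in leaf and in 35 in both. As deposited it was larger in root than in leaf in 51 members, and the share over abundant transcripts was not counted. The order of the tissues depended on scaling. The median log2 ratios in root and leaf were 1.07 and 1.02 by median ratios and 2.02 and 1.20 at the same total. They were 1.03 and 1.19 with the dominant pair removed first. Replicate 2 of the 24 h root controls was the lower replicate in 62 members, and without it the root median was 1.03.

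Under drought at 96 h the members' root values were lower than in controls, within the 2-fold limit of the rule. The log2 ratio had a median of -0.64, between -0.995 and 0.33, beside -0.06 over abundant transcripts. Both drought libraries were below both controls in 68 members, above both in 5, and overlapping in 3. Over abundant transcripts 46.8% were below and 40.4% above. The 5 above were ranks 8, 17, 44, 67 and 73. The rule used this contrast, so no test was made. With libraries scaled to the same total, with or without the dominant pair, 62 members were below and 6 above, and by median ratios 68 were below and 5 above.

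Rank 17 had the largest ratio of the members above control. It had 36.8 and 46.5 in root 96 h drought libraries, against 33.5 and 32.3 in root 96 h controls. In root at 24 h it had 5.77 and 9.497 under drought, against 15.4 and 12.7 in controls. As deposited, drought was above control at 96 h and below it at 24 h. At the same total, 0 members had both drought libraries below both controls in root at 24 h. Rank 8 had 29.4 and 26.9 in root 96 h drought libraries, against 25.5 and 25.4 in root 96 h controls.

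In leaf at 96 h the members' median was near that of abundant transcripts. The members' median log2 drought over control ratio was -0.51, between -0.97 and 0.81, beside -0.62 over abundant transcripts. Both drought libraries were below both controls in 49 members, above both in 13 and overlapping in 14. The background was 59.7% below and 23.7% above. Both leaf drought libraries are among those dominated by 2 transcripts, and the direction depended on scaling. Median-ratio scaling placed 18 members below and 27 above, and moved the abundant median to -0.11. With libraries scaled to the same total, 76 were below and none above, and with the pair removed first 73 were below.

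At 24 h the members' drought ratios were spread on both sides of 1. In root the median log2 ratio was 0.17, beside 0.24 over abundant transcripts, with 24 members above control, 17 below and 35 overlapping. The background was 42.7% above and 20.1% below. The split moved to 36 above and 0 below when libraries had the same total, and to 19 above and 25 below when the pair was removed first. Without replicate 2 of the 24 h root controls the median was -0.08. In leaf the median was 0.21, beside 0.08 over abundant transcripts, with 38 members above control, 19 below and 19 overlapping, on a background of 44% above and 36.6% below. Scaled to the same total, with or without the pair, leaf had 50 above and 11 below, and by median ratios 35 above and 26 below.

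The directions in root and leaf are given side by side as a description, since the rule used all of these contrasts. At 96 h, 43 members (56.6%) were below control in both tissues, beside 30.6% of abundant transcripts, and 13 (17.1%) were below in root and above in leaf, beside 9.77%. At 24 h, 14 members (18.4%) were above control in both tissues, beside 25.5% of abundant transcripts, and 4 (5.26%) were below in both, beside 11.8%. Within root, 21 members (27.6%) were below control at 96 h and above it at 24 h, beside 20.1% of abundant transcripts. A further 14 (18.4%) were below at both times, beside 9.65%. Within leaf the corresponding counts were 22 members (28.9%), beside 20.6%, and 13 members (17.1%), beside 27.5%. The leaf counts at 96 h turned with scaling. Below control in both tissues at 96 h were 17 members by median ratios, 62 at the same total and 59 with the pair removed first, and no relation between the tissues is read from any of these.

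**Figure D4:**
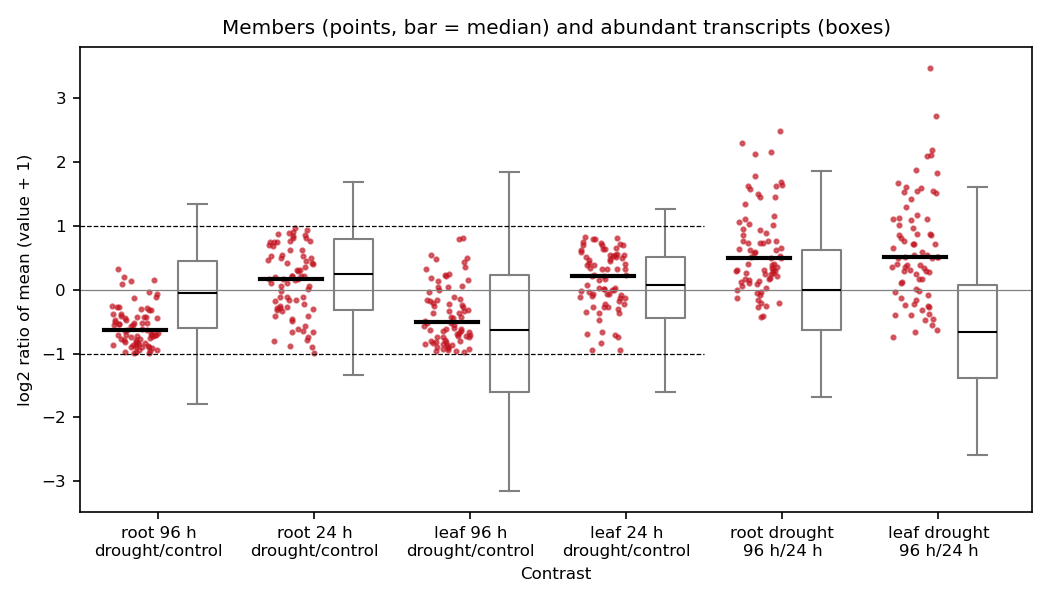
Red points are the 76 members and black bars their medians; grey boxes give the middle 50% of abundant transcripts, with whiskers from the 5th to the 95th percentile. The y axis is the log2 ratio of mean values plus 1, and dashed lines mark the 2-fold limits of the rule on the first 4 contrasts of the x axis. The root 96 h median (-0.64) lies below the abundant median (-0.06), and the last 2 contrasts compare stressed plants at 96 h with those at 24 h.

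Stressed plants were compared between times as a description. The rule did not use this contrast, but its limits mean that the 96 h over 24 h ratio under drought could not be below 0.375, so the direction is not independent of the choice of members. In root the log2 ratio had a median of 0.50, between -0.42 and 2.49, beside -0.01 over abundant transcripts. Both 96 h drought libraries were above both 24 h drought libraries in 51 members, below in 5 and overlapping in 20, on a background of 40.3% above and 40.1% below. The split was 48 above and 10 below by median ratios, and 62 above and 2 below when libraries had the same total, with or without the pair.

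In stressed leaf the median log2 ratio was 0.51, between -0.73 and 3.48, beside -0.67 over abundant transcripts. The 96 h libraries were above in 45 members, below in 10 and overlapping in 21, on a background of 18.5% above and 62.2% below. The counts were 64 above and 0 below by median ratios, 0 above and 74 below at the same total, and 17 above and 39 below with the pair removed first. As deposited, 29 members (38.2%) were above in both tissues, beside 9.01% of abundant transcripts, and that count was 40 by median ratios, 0 at the same total and 14 with the pair removed first.

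A stricter criterion, the lowest 96 h drought value plus 1 at least 1.5 times the highest 24 h drought value plus 1, was met by 24 members in root, 23 in leaf and 11 in both. Over abundant transcripts 3.63% met it in both tissues. The shares in root alone and in leaf alone were not computed. The 11 were ranks 1, 4, 5, 8, 17, 19, 21, 25, 29, 45 and 49. These counts are for the values as deposited. At the same total, 0 members had both leaf 96 h drought libraries above both at 24 h, so the criterion could not be met in leaf. With the pair removed first, 17 members had them above. In root, 43 members (56.6%) were lower in 96 h drought than in 96 h controls and yet higher than in 24 h drought, beside 15.9% of abundant transcripts, and other scalings gave 41 to 49. In leaf 25 members (32.9%) had this intermediate position, beside 4.43%, and the count was 15 by median ratios, 0 at the same total and 15 with the pair removed first. The limits of the rule bear on both counts.

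The sizes of the difference between control times in root and leaf had Pearson r = 0.18 and Spearman rho = 0.20 over 76 members. The difference between times in stressed plants and that in controls had r = 0.40 and rho = 0.37 in root, and r = 0.71 and rho = 0.62 in leaf. Root and leaf stressed differences had r = 0.36 and rho = 0.29. These describe members chosen by the same rule from the same libraries, and members are not independent replicates. Within each tissue, the drought limits of the rule tie the stressed difference to the control difference, which favours a positive r between them. No r over abundant transcripts is given, and nothing is read from these values.

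Components were grouped by the DN number of their identifier, without the c number after it, so a group can hold several read clusters of the assembly. No 2 members shared a DN number. In 17 members the DN group held no other component, which is 22.4% of members, beside 17.2% of abundant transcripts. The other 59 had components beside them, up to 20 in all. Whether reads were split among these was not tested, so their values are less certain. Another abundant component lay beside 40 members (52.6%), and beside 54.2% of abundant transcripts. Of those 79 abundant components beside members, 21 in root, 15 in leaf and 9 in both met the same 1.5-fold criterion between controls. Over all 10560 abundant transcripts the counts were 2235, 1625 and 1016. The median log2 ratio of 96 h to 24 h controls in the 79 was 0.37 in root and 0.06 in leaf. Over abundant transcripts it was 0.24 and -0.03. The member held over 50% of its DN group's summed value in 44 cases, and 0.944% in the lowest case.

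The levels in root and leaf were not compared by the rule and were tested, although the minimum of 5 in each tissue limits how far members can differ, and the drought limits tie the 4 conditions together. As deposited, between 30.3% and 35.5% of members were called in a condition, each time more of them higher in leaf than in root, a split that other scalings turned round. In 96 h drought libraries, limma called 11 members higher in root and 15 higher in leaf at an adjusted p under 0.05 over 41303 transcripts, and did not call 50. Over all tested transcripts 34.3% were called higher in root and 13% higher in leaf, and over abundant ones 47.6% and 19.2%. The members' median log2 difference (root minus leaf) was -0.02, between -2.58 and 2.02, beside 0.68 over abundant transcripts. The differences of members had a median size of 0.48, beside 1.15 over abundant transcripts. The rule held drought ratios within 2-fold in both tissues. In ratios of means, the members' tissue difference at 96 h could thus differ by less than 2 log2 units between drought and control. The limma difference is one of mean log2 values, to which that limit does not strictly apply.

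In 96 h controls, 10 members were called higher in root and 13 higher in leaf. All tested transcripts gave 25.9% and 14.1%, and abundant ones 20.5% and 19.6%. The members' median difference was 0.23, beside 0.05. With the root 96 h control libraries averaged to 1 sample, an alternative chosen after the data were seen, 15 members and 28.8% of abundant transcripts were called.

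In 24 h drought libraries, 7 members were called higher in root and 20 higher in leaf, on 14.6% and 15.3% of all tested transcripts and 21.4% and 24.1% of abundant ones. The members' median difference was -0.06, beside -0.03. In 24 h controls, 10 members were called higher in root and 16 higher in leaf. Over all tested transcripts 12.8% were called higher in root and 18.5% higher in leaf, and over abundant ones 14% and 30.2%. Over the members these shares were 13.2% and 21.1%. The members' median difference was 0.00, between -3.01 and 1.33, beside -0.29 over abundant transcripts.

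The split between tissues depended on scaling. By median ratios, members called higher in root and in leaf numbered 5 and 36 in 96 h drought, 13 and 14 in 96 h controls, 15 and 18 in 24 h drought, and 21 and 13 in 24 h controls. The same fit called 63.7%, 42.3%, 48.4% and 45.3% of abundant transcripts in either direction in these conditions. With the pair removed and totals made equal they numbered 61 and 3, 35 and 6, 22 and 12, and 43 and 4 in the same order of conditions, where 84.6%, 51.3%, 51.1% and 56.5% of abundant transcripts were called. With the pair kept and totals made equal they numbered 73 and 0, 0 and 1, 1 and 1, and 0 and 3, where 90.7%, 9.76%, 9.03% and 14.4% of abundant transcripts were called. Without the 3 libraries dominated by 2 transcripts, also chosen after the data were seen, 48 members were called in 96 h controls, 50 in 24 h drought and 45 in 24 h controls, beside 63.3%, 68.4% and 56.7% of abundant transcripts.

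A p that misses the threshold does not show equal levels. The 95% interval of the difference lay within 1 log2 unit of 0 for 35 members in 96 h drought, 35 in 96 h controls, 32 in 24 h drought and 34 in 24 h controls. Over abundant transcripts the shares were 19.9%, 36.6%, 30.4% and 33.2% in that order. The limma fit called 30 members in no condition, beside 14% of abundant transcripts. It called 9 higher in leaf in all 4 conditions, at ranks 3, 12, 19, 26, 32, 34, 37, 50 and 61, beside 6.27% of abundant transcripts. It called 0 higher in root in all 4, beside 5.98%, and 1 member, rank 60, was so at an unadjusted p under 0.05. Rank 60 was also the only member called higher in root in at least 3 conditions, beside 12.5% of abundant transcripts. Ranks 10, 57 and 58 were called in opposite directions in different conditions, beside 19%. These counts are for the values as deposited, and the scalings that turned the split between tissues bear on them too.

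**Figure D5:**
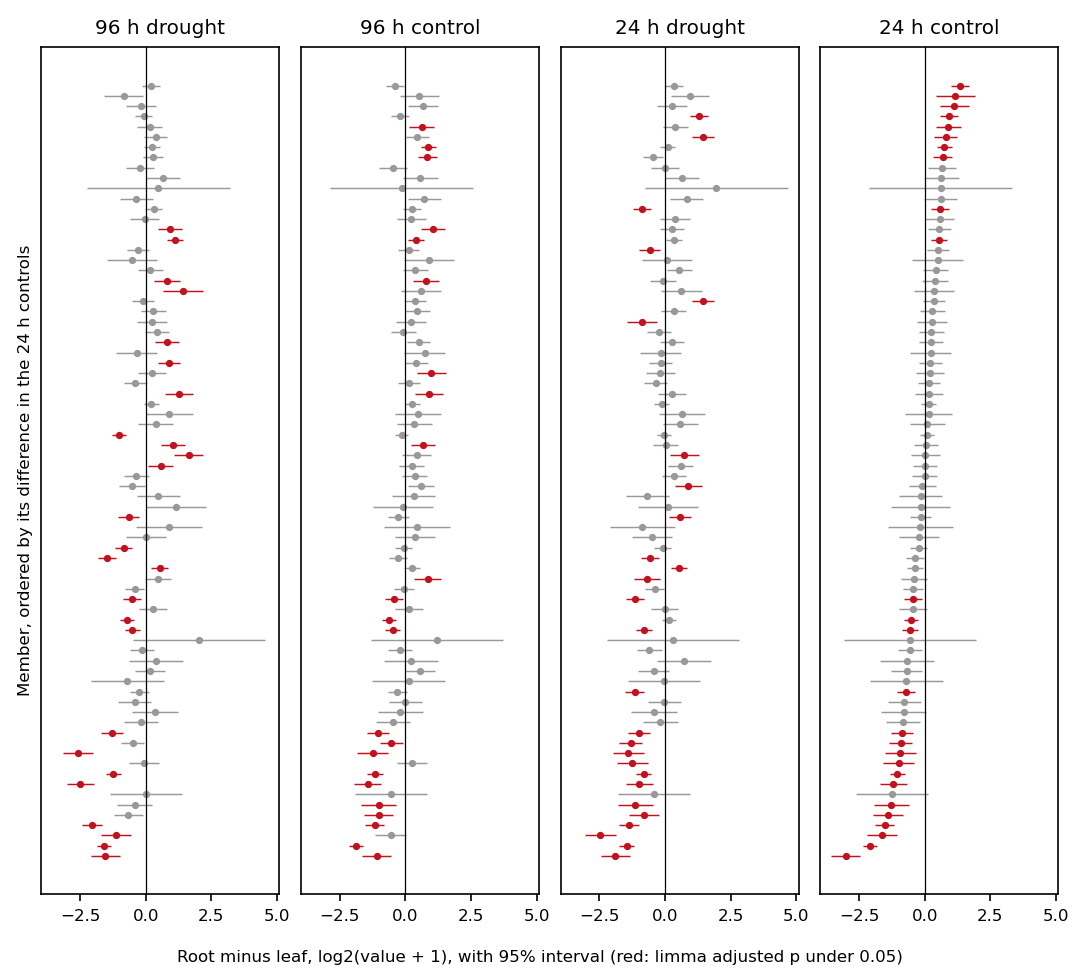
Each panel is 1 condition, and each point 1 of the 76 members, ordered down the page by its difference in the 24 h controls. The x axis is root minus leaf in log2(value + 1) with its 95% interval, and red marks a limma adjusted p under 0.05. The 2 members at the foot of the order, TRINITY_DN45009_c1_g1 and TRINITY_DN47082_c3_g3, are left of 0 and red in all panels, and the 2 at the top are red in the 24 h controls alone.

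The 2 members with the largest root excess in 24 h controls among those called were TRINITY_DN43108_c0_g1 and TRINITY_DN47280_c5_g1. TRINITY_DN43108_c0_g1 (rank 25) had 15.5 and 12.5 in root 24 h controls, against 5.47 and 4.43 in leaf 24 h controls. Its difference was 1.33 ± 0.16 (SE) with a limma adjusted p of 9.95e-05. At 96 h the controls had 31.3 and 31.0 in root, against 40.7 and 42.0 in leaf, a difference of -0.40 with a limma adjusted p of 0.0718. Under drought it had 28.9 and 30.4 in root, against 28.8 and 22.8 in leaf at 96 h, and 8.20 and 8.78 in root, against 7.15 and 5.85 in leaf at 24 h. It was called in none of the other 3 conditions. Over 28 alternatives its limma adjusted p in 24 h controls ran from 6.83e-06 to 0.868, the highest with totals made equal.

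TRINITY_DN47280_c5_g1 (rank 48) had 5.46 and 5.72 in root 24 h controls, against 1.22 and 2.92 in leaf 24 h controls. Its difference was 1.16 ± 0.33 (SE) with a limma adjusted p of 0.0219. The call rested on single libraries, with a limma adjusted p of 0.0678 without replicate 2 of the root controls and 0.193 without replicate 1 of the leaf controls. Over its 28 alternatives the adjusted p ran from 0.00245 to 0.817. At 96 h it had 7.19 and 5.22 in root drought libraries, against 16.6 and 8.24 in leaf drought libraries, and 10.1 and 10.3 in root controls, against 7.51 and 6.01 in leaf controls. It held 3.16% of the summed value of the 12 components in its DN group, and whether reads were shared among them was not tested.

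The 2 members with the largest leaf excess were called in all 4 conditions. TRINITY_DN45009_c1_g1 (rank 50) had 1.77 and 2.22 in root 24 h controls, against 23.5 and 22.4 in leaf 24 h controls. The difference was -3.01 ± 0.25 (SE), with a limma adjusted p of 8.16e-06. In 96 h controls it had 19.3 and 18.1 in root, against 39.4 and 42.6 in leaf, a difference of -1.09 with a limma adjusted p of 0.00516. Its root control ratio of 6.58 between times was the largest among members. Under drought it had 11.5 and 9.88 in root, against 44.8 and 24.3 in leaf at 96 h, and 4.86 and 3.59 in root, against 20.3 and 16.5 in leaf at 24 h.

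TRINITY_DN47082_c3_g3 (rank 26) had 3.55 and 3.33 in root 24 h controls, against 18.3 and 17.3 in leaf 24 h controls. The difference was -2.08 ± 0.12 (SE), with a limma adjusted p of 6.46e-07. In 96 h controls it had 9.45 and 9.28 in root, against 38.3 and 36.1 in leaf, a difference of -1.88 with a limma adjusted p of 5.17e-07. Under drought it had 6.86 and 6.56 in root, against 20.1 and 24.2 in leaf at 96 h, and 5.70 and 5.94 in root, against 18.9 and 16.7 in leaf at 24 h. Both tissues were higher in 96 h than in 24 h controls, with root below leaf throughout. For these 2 members calls depended on scaling. In 96 h controls TRINITY_DN45009_c1_g1 had a limma adjusted p of 0.291 with totals made equal and 0.101 with the pair removed first, and in 24 h drought TRINITY_DN47082_c3_g3 had 0.175 with totals made equal. In 96 h drought, with totals made equal, the differences turned to 1.79 for TRINITY_DN45009_c1_g1 and 1.62 for TRINITY_DN47082_c3_g3, and over 27 alternatives the limma adjusted p ran from 4.18e-05 to 0.731 and from 8.44e-07 to 0.112.

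Rank 12 is a further member called higher in leaf in all 4 conditions. It had 18.6 and 17.4 in root, against 92.6 and 122 in leaf, in 96 h drought libraries, and 32.6 and 32.8 in root, against 85.5 and 95.8 in leaf, in 96 h controls. In 24 h drought libraries it had 17.7 and 31.3 in root, against 46.9 and 47.7 in leaf, and in 24 h controls 14.1 and 11.1 in root, against 29.1 and 30.9 in leaf. Rank 34, among the 3 most abundant, had 180 and 178 in root 96 h controls, against 236 and 247 in leaf 96 h controls. Rank 60 had 28.4 and 28.4 in root 96 h drought libraries, against 11.6 and 13.9 in leaf, and 30.5 and 31.9 in root 96 h controls, against 24.7 and 21.8 in leaf. It had 18.7 and 17.9 in root 24 h controls, against 12.4 and 11.99 in leaf.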

How the data were processed

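The deposited table holds a signal per transcript for 16 libraries of root and leaf. Of the 18 samples in the series, 2 stem samples were not analysed here. The authors labelled the values as TMM-scaled, and in every library the low values lay on the steps of TPM rounded to 2 decimals times 1 factor. Per the submitters' processing notes, edgeR, RSEM, Trimmomatic 0.35 and FastQC 0.11.5 were among the tools. The sources used here do not give the filters, the aligner or the assembler's version. The members and tests were chosen with earlier results of these data known.

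Values used by the rule are described without a test. Root was compared with leaf by limma 3.58.1 in R 4.3.3 on log2(value + 1) over all 16 libraries. Each group had its own coefficient, the moderation of variances (eBayes) was trended and robust, and calls were made at 0.05 after adjustment by Benjamini and Hochberg. Only transcripts reaching 1 in 2 or more libraries were tested, which all 76 members did. Log2 differences understate the change of low transcripts, and p-values measure only the spread between these samples, which may be technical. The script was tested on simulated data. Python 3.11.15 was used for the rule.

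Named transcripts were those called in 24 h controls with the 2 largest differences in each direction. Ranks given beside them were ranks 1 to 5, the last one, those at the end of a range and, chosen after their values were seen, ranks 6, 7, 8, 12, 17, 34 and 60. Alternatives were other pseudocounts, filters, scalings and spread estimates, a replicate block, and each library left out. With 2 replicate numbers per group, the numbers were not taken to pair samples.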

Additional observations from a re-analysis of the deposited data

Results flagged for a closer look

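Drought differences of opposite direction were found in named transcripts whose libraries did not overlap in either of the contexts compared. The values are log2 ratios of mean value plus 1, drought over control. The rule had used these contrasts, and none of these differences was tested.

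TRINITY_DN43108_c0_g1 at 24 h had -0.66 in root and 0.33 in leaf. In leaf the same transcript had -0.66 at 96 h and 0.33 at 24 h. TRINITY_DN47280_c5_g1 at 96 h had -0.63 in root and 0.79 in leaf. TRINITY_DN45009_c1_g1 at 24 h had 0.81 in root and -0.31 in leaf, and in root it had -0.75 at 96 h and 0.81 at 24 h. TRINITY_DN47082_c3_g3 in root had -0.43 at 96 h and 0.62 at 24 h. The 2 libraries of leaf 96 h drought and replicate 2 of the 24 h root controls, which 2 transcripts dominate, enter 1 side of each of these pairs, and their part in the result was not tested.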

How the results depend on the processing

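By median ratios, 41 members were called in 96 h drought between root and leaf, the leaf 96 h drought median was 0.038 and the stressed leaf median between times 1.07. The rule then found 74 transcripts, of which 44 were among the 76 members. At the same total, 73, 1, 2 and 3 members were called (96 h drought, 96 h control, 24 h drought, 24 h control), the rule found 0 members, and the medians were 2.02 (root controls), 1.20 (leaf controls), 0.90 (root 24 h drought), -0.50 (root 96 h), 0.38 (leaf 24 h), -2.90 (leaf 96 h) and -1.98 (stressed leaf between times). With the dominant pair removed first, 64, 41 and 47 were called (96 h drought, 96 h control, 24 h control), the rule found 25, and the same medians were 1.03, 1.19, -0.11, -0.50, 0.36, -1.25 and -0.27. Of the 25 transcripts found by the rule, 13 were among the 76 members. Root minus leaf turned sign in TRINITY_DN43108_c0_g1 (96 h drought -0.38 by median ratios; 96 h control 0.0132 at the same total and 0.0133 with the pair removed). It also did so in 96 h drought at the same total in TRINITY_DN47280_c5_g1 (2.07, and 0.43 with the pair removed), TRINITY_DN45009_c1_g1 (1.79) and TRINITY_DN47082_c3_g3 (1.62).

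Spread from the 4 compared libraries alone gave 64 calls in 96 h controls and 11 in 24 h controls, where 76% and 26.7% of abundant transcripts were called, beside 40.1% and 44.2% with all 16 libraries. Averaging the root 96 h controls gave 15 in 96 h controls. Without the 3 dominated libraries 48, 50 and 45 were called in 96 h control, 24 h drought and 24 h control. A minimum mean of 10 left 45 members. Leaving out each library gave 22 to 37 calls in 96 h drought, 11 to 37 in 96 h controls, 18 to 35 in 24 h drought and 18 to 38 in 24 h controls, and 72 to 103 members. The extremes came without leaf 24 h control 1, root 24 h control 2, leaf 24 h drought 1, root 96 h control 1, root 96 h drought 1, root 24 h control 1 and leaf 96 h drought 2. The medians then ran from 1.03 to 1.55 (root controls), 1.02 to 1.07 (leaf controls), -0.082 to 0.53 (root 24 h drought), -0.63 to -0.61 (root 96 h), 0.13 to 0.29 (leaf 24 h), -0.49 to -0.42 (leaf 96 h), 0.46 to 0.54 (stressed root between times) and 0.45 to 0.51 (stressed leaf between times). The cause of these changes was not tested. The shares of abundant transcripts called with each library left out are not given here, so those call counts show nothing particular to members.

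With the replicate block, 25, 21, 24 and 25 members were called (96 h drought, 96 h control, 24 h drought, 24 h control), beside 26, 23, 27 and 26 without it. In the same order, 66.3%, 39.3%, 44.3% and 43.1% of abundant transcripts were called with the block. Without it 66.8%, 40.1%, 45.4% and 44.2% were called. Replicate differences of root and leaf correlated at 0.00, 0.01, 0.07 and 0.01 over 41303 transcripts. These values cannot show whether root and leaf with the same number came from the same plants. The depth is unknown, and it limits low values most.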
